A study of Mus musculus with 8 samples.

Results

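The genes described here are 10 that act on proteolysis at the cell surface: the 6 membrane-type matrix metalloproteinases Mmp14, Mmp15, Mmp16, Mmp17, Mmp24 and Mmp25, and the 4 tissue inhibitors of metalloproteinases Timp1, Timp2, Timp3 and Timp4. They were picked by symbol from a table of 53921 named gene rows. Each symbol was found in 1 row, and 7 of the 10 passed the filter on low counts that left 15324 genes for testing. The family was picked with the rise of Mmp15 in these same libraries already known. Its differences between the 2 groups are therefore a description, with no p-value printed, and the calls of its members support nothing by themselves.

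The libraries came from mouse induced cardiomyocytes, fibroblast-derived cells that are driven towards heart muscle by added transcription factors. The labels give the cell type as induced cardiomyocytes (Neo) without saying what Neo stands for. Every library was from cells given MGT, the usual name in this field for Mef2c, Gata4 and Tbx5, and collected on day 5. In addition, 2 libraries carried lentivirus with the hairpin labelled shNT, taken as the control, and 2 carried lentivirus with a hairpin against the transcription factor Grhl3, labelled shGrhl3. The hairpin columns of the deposited table are named shGrhl1 and shGrhl2 and were read as replicates 1 and 2 of shGrhl3, the only target the labels name. The labels do not give the number of hairpins used, whether cells were selected for the virus, or whether replicates were separate cultures. Every p-value thus rests on the spread of these libraries alone, which may be technical.

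Membrane-type matrix metalloproteinases are made as inactive precursors, are activated inside the cell by furin-like proteases, and are held at the surface by a transmembrane stretch or a lipid anchor. There they cleave fibrillar collagen and other matrix and surface proteins, and the transmembrane members can activate the secreted gelatinase MMP-2. The TIMPs are small secreted proteins that block the active site of these enzymes. TIMP-2 also takes part in activation, because it bridges MMP-14 and the MMP-2 precursor. In the heart, this system is known for its part in collagen turnover by fibroblasts and in scar remodelling after injury.

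Counts over named genes totalled 16102839 to 19822541 per library, so that 1 count stood for 0.0499 to 0.0630 CPM (counts scaled to a common library size). CPM values use library sizes scaled by TMM factors. Grhl3 itself, the target of the hairpin, was counted 31 and 14 times with shNT and 11 and 19 times with shGrhl3. Its log2 fold change was -0.72 (SE 0.53), which did not pass the threshold (edgeR's quasi-likelihood test, adjusted p = 0.311). With 1 library left out it ranged from -1.20 without shGrhl3 replicate 2 to -0.19 without shNT replicate 1, and was -0.33 without shGrhl3 replicate 1. Grhl1 was counted 13 and 3 times with shNT and 26 and 24 times with shGrhl3. Grhl2 was counted 0 and 5 times with shNT and 1 and 0 times with shGrhl3. The ribosomal RNA gene Rn18s took 0.573% and 2.00% of counts in shNT and 0.0959% and 0.156% in shGrhl3, with shNT replicate 2 apart from the others. Without the rRNA rows, the same 3 family members were called. As background for the marker lists, 35.3% of all tested genes passed an adjusted p of 0.05, 17.2% higher and 18.1% lower. Cardiomyocyte markers summed to 4057 and 4085 CPM in shNT and 4657 and 4619 CPM in shGrhl3, and 3 of 8 rose and none fell. Most of these sums was Tnnt2, which overlapped between the groups, at 3135 and 3293 CPM in shNT and 3311 and 3105 CPM in shGrhl3. Fibroblast markers summed to 10088 and 10193 CPM in shNT and 11168 and 11845 CPM in shGrhl3, with 1 of 8 higher and 5 lower. The higher one, Col1a1, is a large part of these sums, at 4242 and 4159 CPM in shNT and 5667 and 6500 CPM in shGrhl3. The median log2 fold change of the fibroblast list was -0.47. Leukocyte markers summed to 667 and 920 CPM in shNT and 152 and 122 CPM in shGrhl3. Of the 10 tested leukocyte markers 9 fell and 1, Csf1r, rose, and the pan-leukocyte gene Ptprc went from 6.81 ± 0.639 to 1.06 ± 0.163 CPM (SD, n = 2). None of the 14 listed leukocyte markers was at 0 in every library. Mural markers summed to 154 and 150 CPM in shNT against 199 and 238 CPM in shGrhl3. Of these 6 markers 2 were higher and 4 did not pass the threshold, and their median log2 fold change was -0.23. Epithelial markers summed to 11.7 and 13.5 CPM against 27.3 and 24.3 CPM, with 2 of 4 tested higher and 2 not past the threshold. Much of that rise was in Krt7, which went from 2.96 ± 0.794 to 13.9 ± 1.97 CPM (SD, n = 2). Endothelial markers summed to 58.1 and 51.8 CPM in shNT and 45.5 and 40.7 CPM in shGrhl3. Of these 8 markers 1 was lower, and their median log2 fold change was -0.44. Glial markers summed to 4.13 and 4.03 CPM in shNT and 4.84 and 4.55 CPM in shGrhl3, with none of 3 tested called. In such bulk libraries, fewer cells of a type and less RNA per cell cannot be told apart. The part of other cell types in the results on metalloproteinases was not tested.

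Of the 10 family members, 3 passed an adjusted p of 0.05 over all genes tested. Mmp15 and Mmp14 were higher with shGrhl3, and Mmp16 was lower. Over the whole table, 35.3% of tested genes were past this threshold, 17.2% of them higher and 18.1% lower, each as a share of all tested genes. A further 4 members, Mmp17, Timp1, Timp2 and Timp3, were tested and did not pass. The remaining 3, Mmp24, Mmp25 and Timp4, had too few counts to test. The 2 libraries of each group did not overlap in CPM for 5 of the 7 tested members, with 3 higher and 2 lower, while over all tested genes 66.5% were without overlap, 32.8% higher and 33.7% lower. All 3 calls were in transmembrane proteases, and none of the 3 tested TIMPs was called. Whether the proteases differ from the inhibitors was not tested.

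**Figure D1:**
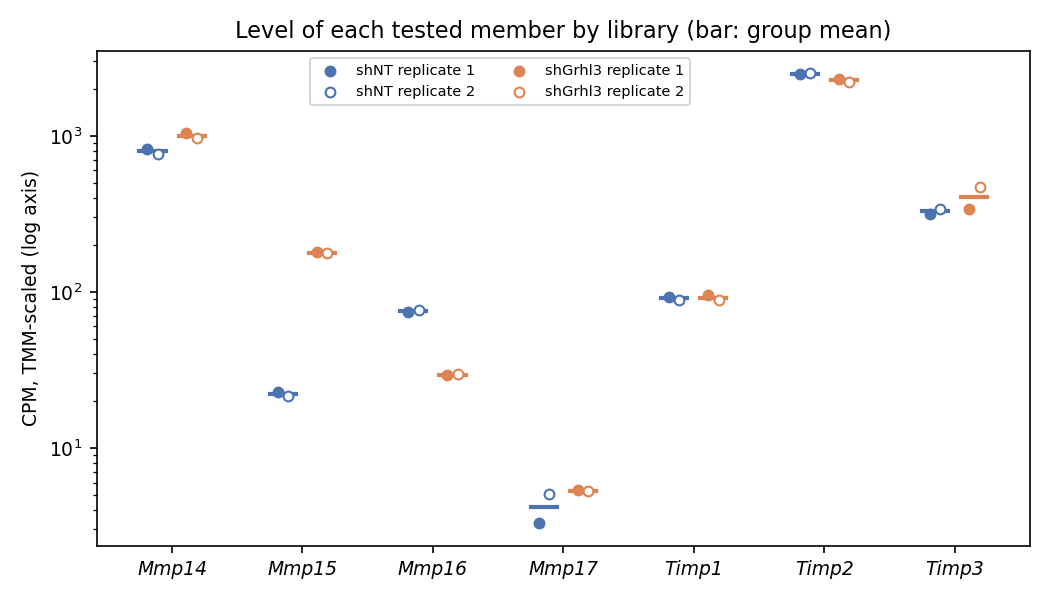
CPM (log axis) of each member in the 4 libraries, with shNT and shGrhl3 libraries as separate points. Mmp15 lies at 21.5 and 22.8 CPM in shNT and at 176 and 179 CPM in shGrhl3, while Timp1 overlaps between the groups. Heights of different genes are not comparable, because CPM is not divided by transcript length.

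Mmp15, also called MT2-MMP, is a transmembrane protease that can activate the MMP-2 precursor and cleave matrix proteins. Its counts were 436 and 341 with shNT and 3588 and 3293 with shGrhl3. On the CPM scale these were 22.8 and 21.5 against 179 and 176. Both shGrhl3 libraries lay far above both shNT libraries, and the libraries of a group lay close together. The mean went from 22.1 ± 0.926 to 178 ± 1.89 CPM (SD, n = 2), which is an 8.01-fold rise. As a log2 fold change this was 3.00 (SE 0.10, 95% interval 2.79 to 3.21), rank 42 from the highest of 15324 tested genes. Leaving out a library in turn gave log2 fold changes of 2.96 to 3.05.

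Mmp14, or MT1-MMP, is the main collagen-cleaving protease of the cell surface and the partner of TIMP-2 in MMP-2 activation. Its shNT libraries had 825 and 765 CPM, and its shGrhl3 libraries had 1039 and 964 CPM. The groups did not overlap, but the highest shNT library and the lowest shGrhl3 library were much nearer to each other than for Mmp15. The mean went from 795 ± 42.5 to 1001 ± 52.6 CPM (SD, n = 2), or 1.26-fold, with a log2 fold change of 0.33 (SE 0.08, 95% interval 0.17 to 0.50). Without shNT replicate 2 the log2 fold change was 0.28 and no longer past the threshold.

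Mmp16, or MT3-MMP, is a further transmembrane protease able to activate the MMP-2 precursor. It moved in the opposite direction, with 1415 and 1207 counts in shNT and 586 and 554 in shGrhl3. These counts stood for 73.9 and 76.0 CPM in shNT and 29.2 and 29.7 CPM in shGrhl3. Both hairpin libraries were below both control libraries, again with little spread within a group. The mean fell 2.55-fold, from 75.0 ± 1.46 to 29.4 ± 0.304 CPM (SD, n = 2). Its log2 fold change of -1.35 (SE 0.10, 95% interval -1.56 to -1.14) had rank 444 from the lowest of all tested genes, and -1.37 to -1.33 was the range with 1 library left out.

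**Figure D2:**
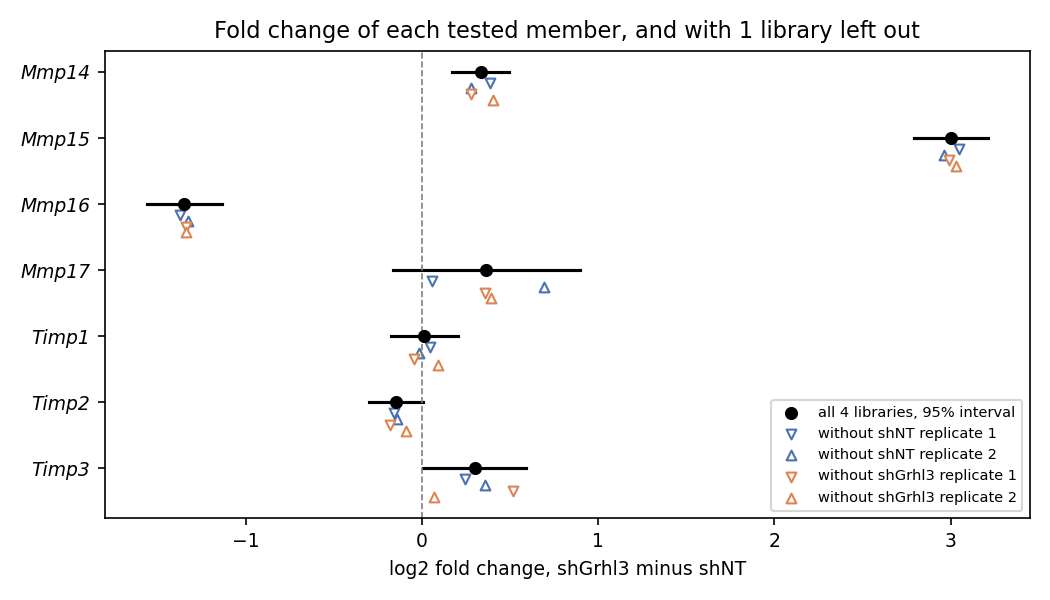
Log2 fold change of shGrhl3 against shNT for the 7 tested members, with the 95% interval as a line and the value after leaving out each library as triangles. Mmp15 at 3.00 and Mmp16 at -1.35 keep their place whichever library is left out, while Mmp17 ranges from 0.06 to 0.69 and Timp3 from 0.07 to 0.52.

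The promoter windows of Mmp15 and Mmp14 are printed because these are the members that were higher with shGrhl3. Each window runs from 250 bases before to 50 bases from the annotated start, read 5′ to 3′ on the + strand, as given by RefSeq on GRCm38.p6. Capitals mark the GC box, GGGCGG searched on both strands (CCGCCC on the other), the motif of SP-family factors. The Mmp15 window is chr8:95352046-95352345 and the Mmp14 window is chr14:54431348-54431647.
Mmp15: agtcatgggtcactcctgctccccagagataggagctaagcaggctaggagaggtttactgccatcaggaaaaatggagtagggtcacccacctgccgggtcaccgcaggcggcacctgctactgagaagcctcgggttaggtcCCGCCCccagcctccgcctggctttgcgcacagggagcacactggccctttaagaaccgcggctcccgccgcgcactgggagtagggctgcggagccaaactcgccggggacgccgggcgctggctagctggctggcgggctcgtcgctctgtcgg
Mmp14: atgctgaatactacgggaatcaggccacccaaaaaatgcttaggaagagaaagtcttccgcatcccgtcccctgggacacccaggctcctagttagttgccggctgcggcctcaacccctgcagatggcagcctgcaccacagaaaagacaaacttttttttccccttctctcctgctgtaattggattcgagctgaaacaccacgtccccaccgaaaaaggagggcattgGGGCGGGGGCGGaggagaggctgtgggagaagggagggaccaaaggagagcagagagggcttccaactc
The Mmp15 window is the richer in CpG dinucleotides, with 22 against 10 in the Mmp14 window and a median of 7 over 32817 windows. Its G and C bases made up 66.0% of the window, against 56.0% for Mmp14 and a median of 52.7%. Mmp15 has 1 GC box, starting at position -106 from the annotated start, and Mmp14 has 2 in a row, starting at -19 and -13.

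RefSeq windows were on hand for 8 members, all but Mmp16 and Mmp17. Of these, 7 held a GC box, which was in 35.6% of all windows, and Timp4 was the one without. The GC content of the 8 windows ran from 53.3% in Timp4 to 80.0% in Mmp24, all above the median of 52.7%. The share of 35.6% was not matched for GC content. The Grainyhead-like motif was searched as AACCGGTT, found in 48 windows or 0.146%, and in the looser form AACNNGTT, found in 1378 windows or 4.2%. The first form is contained in the second. None of the 8 member windows held either form. Also absent from all 8 were the T-box element AGGTGT (13.7%), the AP-1 site TGANTCA (7.81%) and TATAAA (13.6%). The GATA site AGATAA, found in 11.2% of windows, was in the Mmp24 window alone. All motifs were searched on both strands. These are counts of letters in short windows and say nothing of whether a factor binds there or elsewhere.

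Mmp15 spans chr8:95352296-95374293 on the + strand. Within 250 kb of it, 5 other genes were tested, of which 2 rose and 1 fell. The nearest, the RNA-processing exonuclease gene Usb1, lies 4783 bases before Mmp15 and rose by 0.36 on the log2 scale (SE 0.13, edgeR adjusted p = 0.0340). On the other side, Cfap20 fell by 0.43 (SE 0.11, edgeR adjusted p = 0.00319) and Csnk2a2, a casein kinase 2 subunit, rose by 0.33 (SE 0.09, edgeR adjusted p = 0.00769). The log2 fold changes of Kifc3 and Zfp319 were 0.10 and -0.10, neither past the threshold. The log2 fold changes of the 5 neighbours thus lay between -0.43 and 0.36, against 3.00 for Mmp15.

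**Figure D3:**
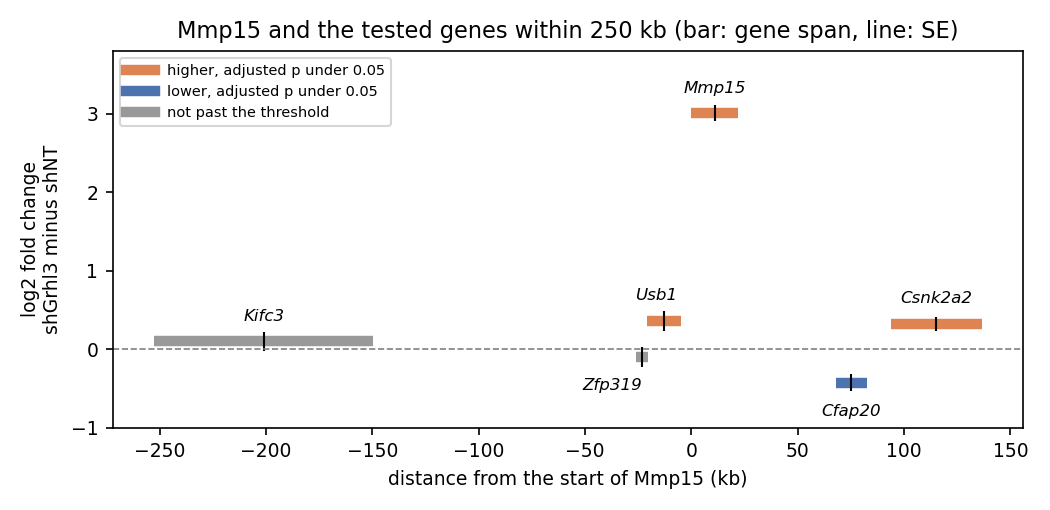
Log2 fold change of Mmp15 and of the 5 tested genes within 250 kb, placed by distance in kb from the start of Mmp15 (bars: gene span, lines: SE). Mmp15 stands at 3.00, while the neighbours lie between -0.43 and 0.36.

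Mmp17 and Mmp25 differ from the other members in being held to the membrane by a glycosylphosphatidylinositol (GPI) anchor. Mmp17, or MT4-MMP, had 63 and 81 counts in shNT and 107 and 99 in shGrhl3. On the CPM scale it had 3.29 and 5.10 in shNT and 5.34 and 5.30 in shGrhl3. The groups did not overlap, but shNT replicate 2 was close to both shGrhl3 libraries. Its log2 fold change of 0.37 (SE 0.26, 95% interval -0.17 to 0.90) did not pass the threshold, and it ranged from 0.06 without shNT replicate 1 to 0.69 without shNT replicate 2. Mmp25, or MT6-MMP, known from neutrophils, had 3 and 7 counts in shNT and 5 and 2 in shGrhl3. Over each group this was 0.286 CPM (95% exact Poisson interval 0.137 to 0.525) and 0.181 CPM (0.0727 to 0.372), and these intervals overlap. Mmp24, or MT5-MMP, a transmembrane protease best known from the nervous system, was not counted (0) in either shNT library and had 1 and 2 counts with shGrhl3. The shNT group, at 0, has an upper limit of 0.105 CPM by the same interval (0.0857 CPM if 3 counts are taken as the limit), and the shGrhl3 group stood at 0.0775 CPM (95% exact Poisson interval 0.0160 to 0.226). No difference in Mmp24 or Mmp25 was detectable at this depth. These intervals and limits cover counting error only.

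None of the tested inhibitors passed the threshold. Timp2, the partner of MMP-14 in activating MMP-2, had 2498 and 2520 CPM in shNT and 2322 and 2208 CPM in shGrhl3. Both shGrhl3 libraries were lower, but by little. The mean went from 2509 ± 16.1 to 2265 ± 80.2 CPM (SD, n = 2), a log2 fold change of -0.15 (SE 0.07, 95% interval -0.30 to 0.01) that did not pass the threshold. Only without shGrhl3 replicate 1 did it pass, at -0.18. The gene spans chr11:118301061-118355411 and holds the tested gene Cep295nl, so reads of these genes may be shared.

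Timp1, which inhibits most secreted metalloproteinases but is a poor inhibitor of the transmembrane ones, had 93.0 and 89.0 CPM in shNT and 95.7 and 88.3 CPM in shGrhl3. The groups overlapped, and a log2 fold change of 0.01 (SE 0.09, 95% interval -0.18 to 0.20) did not pass the threshold. Its sign turned to -0.01 without shNT replicate 2 and to -0.04 without shGrhl3 replicate 1.

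Timp3 binds to the matrix and also inhibits many ADAM proteases. It had 317 and 342 CPM in shNT and 341 and 471 CPM in shGrhl3. The shGrhl3 libraries were far apart, with replicate 1 inside the shNT range and replicate 2 above all others. The mean went from 330 ± 17.8 to 406 ± 92.2 CPM (SD, n = 2), a log2 fold change of 0.30 (SE 0.13, 95% interval 0.01 to 0.59) that did not pass the threshold after adjustment. Replicate 2 of shGrhl3 decided this value, which was 0.07 without it and 0.52, past the threshold, without shGrhl3 replicate 1. It also passed at 0.36 without shNT replicate 2, at 0.28 with the replicate number as a block, and at an unmoved 0.30 when the spread was not estimated robustly.

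Timp4, best known from heart and brain, had 6 and 0 counts in shNT and 4 and 0 in shGrhl3. Each group thus had its counts in replicate 1 alone. Summed, they were 0.171 CPM in shNT (95% exact Poisson interval 0.0629 to 0.373) and 0.103 CPM in shGrhl3 (0.0281 to 0.264), with no difference detectable at this depth.

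**Figure D4:**
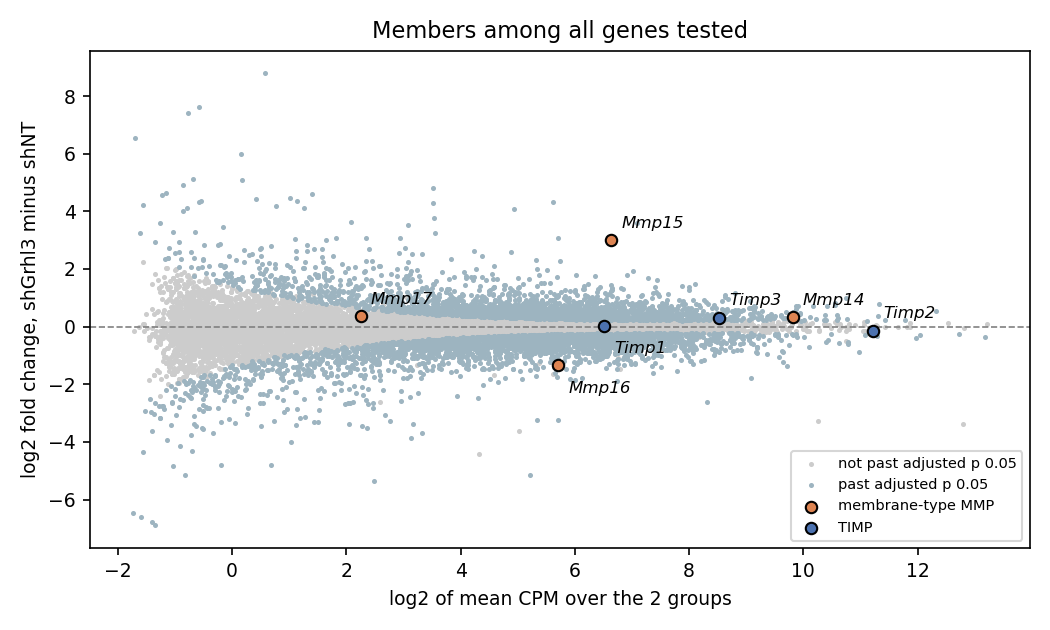
Log2 fold change of shGrhl3 against shNT over the log2 of the mean CPM of the 2 groups, for all 15324 tested genes, with members in colour. Mmp15 stands at 3.00, Mmp16 lies below 0 at -1.35, and the 3 tested TIMPs lie between -0.15 and 0.30.

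Of the 4 TIMP genes, 3 lie inside synapsin genes, which encode proteins of synaptic vesicles. Timp1 lies at chrX:20870166-20874737 on the + strand within Syn1 on the - strand, Timp4 at chr6:115244444-115252205 on the - strand within Syn2 on the + strand, and Timp3 at chr10:86300412-86349505 within Syn3. The sources used here do not say whether reads were counted by strand, so reads of host and TIMP may not be fully separated. Syn2 had 11.2 and 12.5 CPM in shNT and 5.74 and 8.35 CPM in shGrhl3. It fell by 0.75 on the log2 scale (SE 0.19, edgeR adjusted p = 0.00398), while without shGrhl3 replicate 1 the value was -0.50 and not past the threshold. Syn1 did not pass, at 2.06 ± 0.0284 against 2.09 ± 0.00494 CPM (SD, n = 2), and Syn3 had 2 to 11 counts per library and was not tested.

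The genes around this family were counted by role, from lists written with earlier results of these libraries known. They hold 77 genes, each counted once, of which 61 were tested. Of these, 18 rose, 17 fell and 26 did not pass the threshold, against the 35.3% called over all genes. The median log2 fold change over all tested genes was -0.01.

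The proprotein convertases include the enzymes that activate membrane-type metalloproteinases. Of 7 listed 5 were tested, 3 rose and none fell, with a median log2 fold change of 0.46. Furin, the main activator, had 112 and 104 CPM in shNT and 204 and 231 CPM in shGrhl3. The groups did not overlap, and it rose by 1.01 on the log2 scale (SE 0.09, edgeR adjusted p = 7.29e-09). Pcsk6 rose from 25.9 ± 0.174 to 40.1 ± 5.29 CPM (edgeR adjusted p = 2.23e-04, n = 2). Pcsk5 rose from 65.0 ± 2.75 to 89.3 ± 3.23 CPM (edgeR adjusted p = 5.21e-04, n = 2). Pcsk7 and Pcsk4 did not pass, at log2 fold changes of 0.24 and -0.96.

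Of the 17 metalloproteinases listed as secreted, 11 were tested, 2 rose and 4 fell, with a median log2 fold change of -0.68. Mmp2, the gelatinase that the transmembrane members activate, had 347 and 380 CPM in shNT and 270 and 254 CPM in shGrhl3. It fell by 0.47 on the log2 scale (SE 0.08, edgeR adjusted p = 9.85e-05). Mmp23, which is released from a membrane-bound precursor, fell by 0.68 (SE 0.10, edgeR adjusted p = 1.22e-05). The stromelysin Mmp3 fell by 1.57 (SE 0.29, edgeR adjusted p = 0.00130). Mmp8, the neutrophil collagenase, showed the lowest value among those past the threshold, from 16.4 ± 4.78 to 1.11 ± 0.0541 CPM (SD, n = 2) and a log2 fold change of -3.86 (SE 0.28, edgeR adjusted p = 4.91e-10).

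The genes that rose, named here because there were only 2, were Mmp10 and Mmp11. Mmp10, a stromelysin, had 4 and 8 counts in shNT and 34 and 23 in shGrhl3 (log2 fold change 2.08, edgeR adjusted p = 0.00997), and lost the threshold without shNT replicate 1 (1.53) or shGrhl3 replicate 1 (1.82). Mmp11 had a log2 fold change of 0.36 (edgeR adjusted p = 0.0449), close to the threshold. It lost it without shNT replicate 1 (0.18) or shGrhl3 replicate 1 (0.20), and also with the replicate block (0.36), DESeq2 or no filter on low counts (0.37 each). Mmp12, the macrophage elastase, chosen after its values were seen, had 26.3 and 50.4 CPM in shNT and 3.04 and 0.428 CPM in shGrhl3. Its log2 fold change of -4.41 (SE 0.92, edgeR adjusted p = 0.0780) missed the threshold, with the libraries of each group far apart. The call depended on how the spread was estimated: it was also missed with limma-voom and with the replicate block, and made with DESeq2 and with spread that was not robust. Leaving out 1 library gave log2 fold changes of -6.45 to -3.62. In each such fit, the lone library of its group is assumed to vary like the other group. The 14 listed leukocyte markers, of which 9 fell and Csf1r rose, summed to 667 to 920 CPM in shNT and 122 to 152 CPM in shGrhl3, and their part in the values of Mmp8 and Mmp12 was not tested. Mmp1a, Mmp7, Mmp20 and Mmp21 had 0 counts in all libraries.

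Other inhibitors than the TIMPs were mostly at low counts. Of 7 listed, 3 were tested, none rose and 1 fell, with a median log2 fold change of 0.07. Reck, a GPI-anchored inhibitor of membrane-type and secreted metalloproteinases, had 92.1 and 89.9 CPM in shNT and 89.6 and 101 CPM in shGrhl3. The groups overlapped, with a log2 fold change of 0.07 (SE 0.09, edgeR adjusted p = 0.624). Tfpi2, a protease inhibitor deposited in the matrix, fell by 0.48 (SE 0.15, edgeR adjusted p = 0.0163). It lost the threshold without shNT replicate 1 (-0.49), shNT replicate 2 (-0.48) or shGrhl3 replicate 2 (-0.40).

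Genes for surface partners of the membrane-type proteases moved both ways. All 16 were tested, with 5 higher, 5 lower and 6 not past the threshold, at a median log2 fold change of 0.01. Cav1, the caveolin of the pits that take up MMP-14, rose by 1.10 (SE 0.10, edgeR adjusted p = 7.72e-09). Sh3pxd2a, whose product Tks5 scaffolds the invasive protrusions where MMP-14 gathers, rose by 0.65 (SE 0.09, edgeR adjusted p = 2.36e-06). The 6 listed tetraspanins, membrane scaffold proteins, were split. Cd151 fell by 0.98 (SE 0.08, edgeR adjusted p = 3.51e-09) and Tspan12 by 0.62 (SE 0.09, edgeR adjusted p = 5.55e-06). Cd82 rose by 0.74 (SE 0.11, edgeR adjusted p = 1.26e-05) and Cd81 by 0.29 (SE 0.08, edgeR adjusted p = 0.00446), and Cd9 and Cd63 did not pass, at 0.02 and 0.05.

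The listed ADAM and ADAMTS proteases, many but not all of which TIMPs, Timp3 above all, can inhibit, were also split. Of 11 listed and tested, 3 rose, 4 fell and 4 missed the threshold, with a median log2 fold change of -0.14. Adam10, a main sheddase of surface proteins such as Notch receptors, went from 320 ± 9.03 to 143 ± 5.38 CPM (log2 fold change -1.16, SE 0.08, edgeR adjusted p = 2.12e-10, n = 2). Adamts9, a proteoglycan-cleaving enzyme, fell by 1.17 (SE 0.11, edgeR adjusted p = 8.42e-09). In the other direction, Adam33 rose by 1.47 (SE 0.24, edgeR adjusted p = 4.18e-05) and Adam12 by 0.65 (SE 0.12, edgeR adjusted p = 2.07e-04).

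Of 19 genes for proteins that membrane-type metalloproteinases are known to cleave, 16 were tested, 5 rose and 4 fell, with a median log2 fold change of 0.11. Tgm2, the matrix crosslinker transglutaminase 2, had 54.9 and 52.6 CPM in shNT and 191 and 186 CPM in shGrhl3. Its log2 fold change was 1.81 (SE 0.09, edgeR adjusted p = 7.08e-13). The surface proteoglycan Sdc1 rose by 1.05 (SE 0.11, edgeR adjusted p = 4.46e-08). Col1a1, a chain of type I collagen, rose by 0.53 (SE 0.08, edgeR adjusted p = 9.07e-06). Col1a2, the other chain of the same collagen, did not pass, at a log2 fold change of 0.16 (SE 0.07). The 4 that fell were Mmp2, Fn1, Eng and Cd44, at log2 fold changes of -0.47, -0.37, -0.29 and -0.26.

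**Figure D5:**
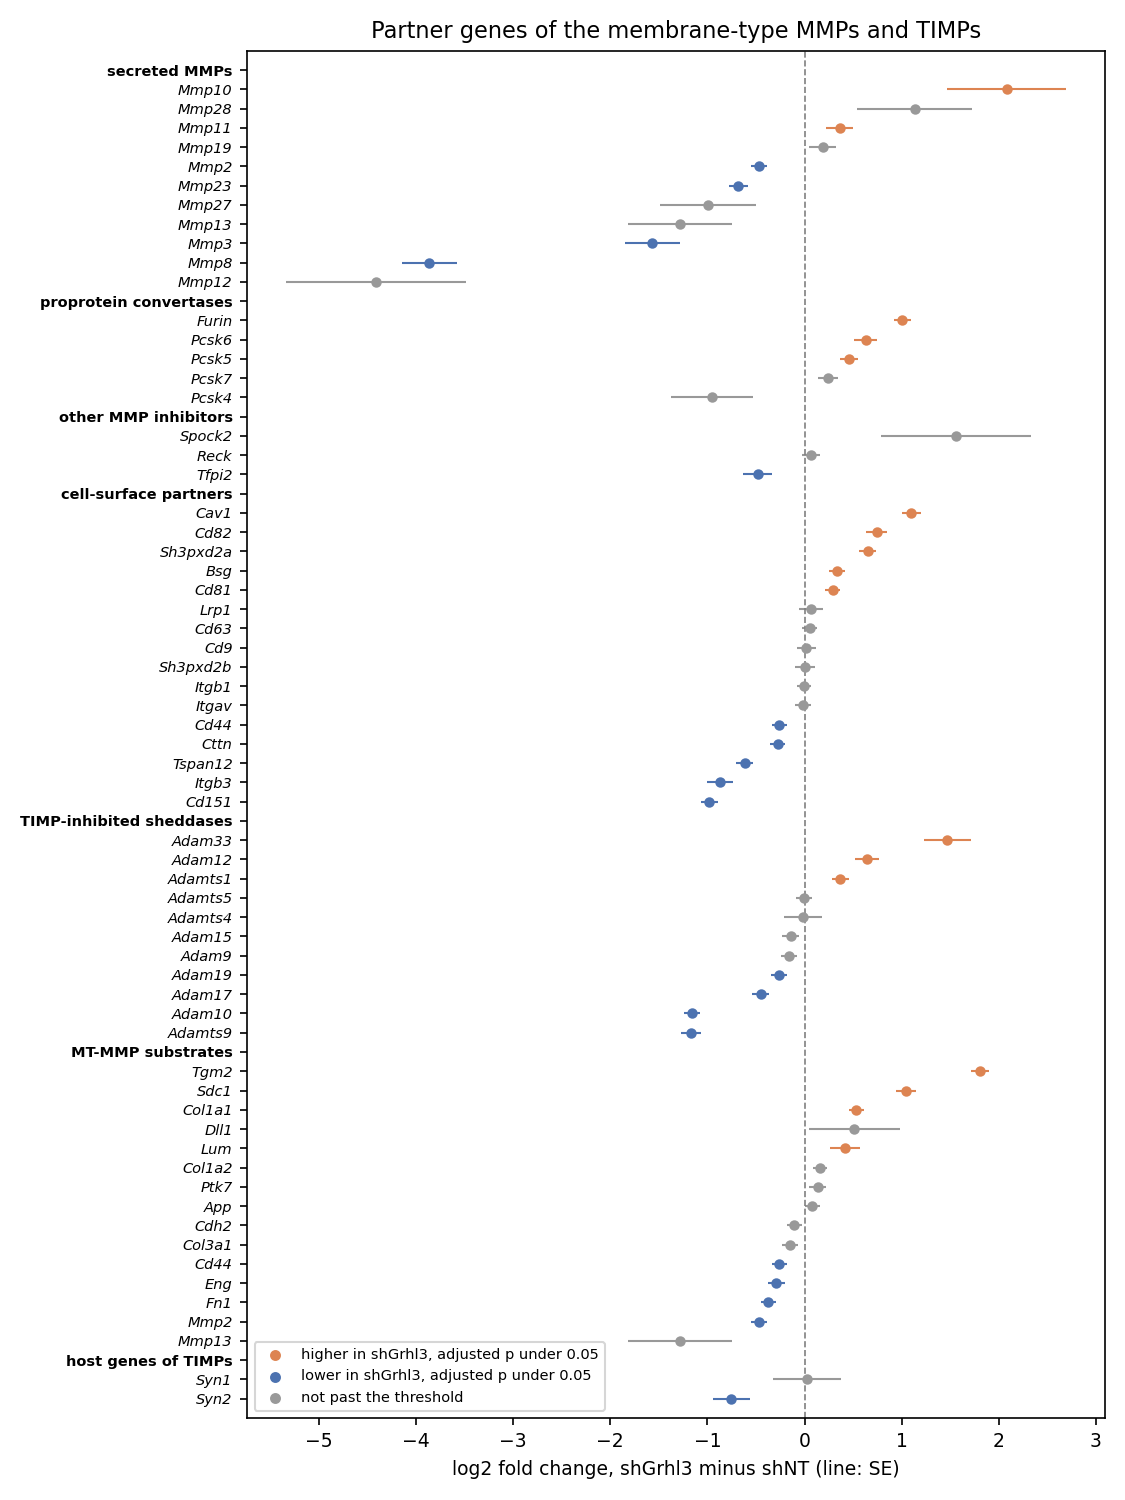
Log2 fold change with its SE for the tested genes of the 7 lists around the family, less 1 gene that is not shown, ordered within each list and coloured by call. Furin, Pcsk6 and Pcsk5 lie to the right at 0.46 to 1.01, Mmp8 at -3.86 and Mmp12 at -4.41 lie far to the left, and surface partners, sheddases and substrates lie on both sides of 0.

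The genes with the profile nearest to that of Mmp15 were found by the Euclidean distance of log2 CPM over the 4 libraries, each gene centred on its own mean. They were the glycosyltransferase gene B3gnt7 (distance 0.0649), the myoglobin gene Mb (0.0978), the peptidylarginine deiminase gene Padi3 (0.311), the receptor gene Gpr83 (0.384) and Shisa3 (0.416). Mb went from 11.1 ± 0.678 to 93.7 ± 5.50 CPM, and B3gnt7 from 1.08 ± 0.0190 to 9.12 ± 0.0543 CPM (SD, n = 2). Around Mmp16 the nearest were the magnesium transporter gene Slc41a1 (0.0433), the sphingosine phosphate lyase gene Sgpl1 (0.0516), the microRNA gene Mir3060 (0.0530), Tbc1d9 (0.0596) and the stanniocalcin gene Stc1 (0.0802). Sgpl1, for example, went from 265 ± 0.407 to 101 ± 2.01 CPM (SD, n = 2). Padi3 stood at only 0.0576 CPM in shNT, with a log2 fold change of 4.37 against 3.00 for Mmp15. Mir3060 stood at 0.571 CPM in shNT, with -1.84 against -1.35 for Mmp16. At such low levels the distance depends on the prior count of 2. With 2 groups and 4 libraries, such nearness mostly restates a similar difference between the groups.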

How the data were processed

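RNA-seq was measured in 2 shNT and 2 shGrhl3 libraries. The authors deposited 1 table of raw gene counts with 1 column per library. The tools named, per the submitters' processing notes and without their roles, are HISAT2 2.0.1 and Bowtie2 2.2.6 (aligners), cutadapt 1.9.1, ChIPseeker and MACS2, with the build mm10. The counting program, annotation, strand setting and treatment of multi-mapping reads were not given in the sources used. CUT&Tag samples were not analysed here. Rows that name no gene (1438, with 0.00432% to 0.00872% of counts) were left out.

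Genes were filtered with filterByExpr (minimum count 10), scaled by TMM and tested with edgeR 4.0.16 in R 4.3.3 by a two-sided quasi-likelihood test with robust spread and no covariate. The Benjamini-Hochberg adjustment ran over all 15324 genes, at a threshold of 0.05. SEs come from the F statistic, and the procedure was tested on simulated data. Replicates of a group differed by more than sampling noise (chi-square per degree of freedom 14.1 and 8.66).

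The members and lists were chosen with earlier results of these data known. Genes named are all members, Grhl3, Mmp2, Furin, Reck, the synapsin hosts, for each list up to 4 genes past the threshold (lowest p first), and the 5 nearest profiles to Mmp15 and Mmp16. The nearest profiles used log2 CPM with a prior count of 2 and left out predicted genes. Of the genes this rule takes, 1 is not reported here by name, though list counts include it. Named outside this rule, with their values seen, are the genes around Mmp15, the other tetraspanins, Mmp10, Mmp11, Mmp12, Pcsk4, Pcsk7 and Col1a2. Also outside it, with values seen, are Grhl1, Grhl2, Tnnt2, Ptprc, Csf1r, Krt7, Rn18s, Cep295nl, Fn1, Eng, Cd44 and the metalloproteinases at 0. Alternatives were other size factors, other filters, DESeq2 1.42.0, limma-voom (limma 3.58.1), spread that was not robust, a replicate block, summed symbols and leaving out each library. Leaving out rRNA rows was added after seeing the data. Gene positions and promoters are from RefSeq on GRCm38.p6, the assembly behind mm10.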

Additional observations from a re-analysis of the deposited data

How the results depend on the processing

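Over 14 alternatives, the calls of Mmp15 and Mmp16 kept their direction and side of the threshold. All drew on the libraries in which the rise of Mmp15 was already known when the family was picked. This steadiness thus describes the processing and supports nothing further. The number of members called was 3 to 5 with 1 library left out and 4 with the replicate block or with spread that was not robust, and the number called lower was 1 to 2. The pairing check correlated the deviations of replicate 1 from the group means between shNT and shGrhl3, and gave -0.06. It showed no strong shift shared by replicate number, but cannot show whether libraries were prepared in pairs. The replicate block gave 5042 genes called over the table in place of 5402, and 34 partner genes in place of 35. DESeq2 called 3899 genes over the table and 32 partner genes. With 1 library left out, the log2 fold change of Timp1 ranged from -0.0438 to 0.0911 and that of Reck from -0.0025 to 0.15. Timp1 reversed without shNT replicate 2 (-0.01) or shGrhl3 replicate 1, and Reck without shGrhl3 replicate 2, none past the threshold; the cause was not tested. Tfpi2, Mmp10 and Mmp11 also lost the threshold with DESeq2. Where 1 library is left out, the lone library of its group is assumed to vary like the other group. With 2 libraries per group, members at fewer than 10 counts per library could not be compared.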
